A study of Mus musculus with 8 samples.

Results

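DNA methyltransferases and Polycomb proteins are enzymes and scaffolds of gene silencing. Dnmt1 copies cytosine methylation onto newly made DNA strands, while Dnmt3a and Dnmt3b place it on unmethylated sites. Polycomb repressive complex 2 (PRC2), built on Ezh2 or Ezh1 with Eed and Suz12, methylates histone H3, and Polycomb repressive complex 1 (PRC1), which contains Rnf2 and in many forms Bmi1, ubiquitinates histone H2A. Brg1, encoded by Smarca4, is an ATPase of SWI/SNF chromatin remodelling complexes, which are known to oppose Polycomb silencing at many genes. In the lens, epithelial cells divide and differentiate into fiber cells, which later lose their nuclei.

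The 9 genes examined were Dnmt1, Dnmt3a, Dnmt3b, Ezh2, Ezh1, Eed, Suz12, Bmi1 and Rnf2. They were taken as every probe set that the platform annotation gives to one of these genes alone, which yielded 27 of the 22626 non-control probe sets of the array and 9 of its 12393 singly named genes. A probe set is a group of short probes read as one value for one stretch of a transcript, and each gene had between 1 and 6 of them. Values are log2 intensities, and probe sets differ in brightness for reasons other than transcript number, so levels are compared between samples and not between probe sets.

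RNA came from whole lenses of mouse embryos at day 15.5, from 4 wild type samples and 4 dnBrg1 samples, all of a mixed strain background. The dnBrg1 embryos carried a transgene in which an αA-crystallin promoter drives a dominant-negative Brg1 with a mutated ATP-binding site, and this promoter is active mainly in lens fiber cells, so other cells of the lens need not express it. The transgenic samples came from 1 founder line, and endogenous Brg1 was still present. The labels name total RNA as the molecule of every sample, but they also mention polysome-bound RNA for wild type samples 1 to 4 and dnBrg1 samples 1 and 2, and not for dnBrg1 samples 3 and 4. The comparison asks whether blocking Brg1 activity in the lens changed the expression of these silencing genes.

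Several facts of the series bear on every value. The Smarca4 probe set 1426805_at, which reads the transgene only if its probes lie in the transgenic transcript, was 2.35 ± 0.21 (SE) higher in dnBrg1 on the log2 scale (adjusted p = 4.8e-05), while 1426804_at differed by -0.24 ± 0.11 (adjusted p = 0.12). All 8 measured lens fiber markers, Cryaa among them, were brighter than the array's median, and 2 rose and 1 fell, while of 6 lens epithelium markers 3 rose and 2 fell. The summed intensity of the fiber markers was 106120 to 115064 in wild type and 113560 to 123164 in dnBrg1, and that of the epithelium markers 14960 to 16149 and 14846 to 16879, so both overlapped between groups. The Affymetrix control probe sets for the 3' and the 5' part of Gapdh and Actb differed less in dnBrg1: averaged over both genes, the 3' minus 5' difference was 1.43 to 2.66 in wild type and 0.592 to 0.649 in dnBrg1, without overlap. Of 6 retina marker genes 5 fell and none rose, and their summed linear intensity was 10439 to 14054 in wild type and 6251 to 8371 in dnBrg1. Of 6 macrophage marker genes 3 rose and 2 fell, and their sum was 3656 to 4963 in wild type and 1519 to 2841 in dnBrg1. The brightest, Csf1r, weighed most in this sum and went from a log2 mean of 11.86 in wild type to 9.73 in dnBrg1. Its other probe sets stood at -2.03, which passed, and -0.32, which did not. Ptprc also fell, while Cx3cr1, Lyz2 and Fcgr3 rose, so the sum does not stand for all 6 markers. Neither the retina nor the macrophage sum overlapped between groups. That of 17 proliferating cell genes, of which 3 rose and 2 fell, did (37969 to 42615 against 36989 to 47107). For scale, 40.7% of all genes passed the test described below on their brightest probe set, 17.5% higher and 23.3% lower. The mesenchyme and skeletal muscle sums overlapped but reached 9788 and 4432 in dnBrg1, against at most 4738 and 851 in wild type. The part of these other cells in the members' values was not tested. In RNA of a whole tissue, fewer cells of a type and less RNA per cell cannot be told apart.

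Promoter windows are shown for Dnmt1, Dnmt3b and Eed, the members whose brightest probe set lay above the array's median and passed the test described below. Each runs from 250 bases before to 50 after a RefSeq transcription start (GRCm38.p6), and capitals mark CpG, the dinucleotide that the methyltransferases act on. For Dnmt1, RefSeq gives 3 windows, and the one with most CpG is shown.

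Dnmt1, chr9:20952574-20952873, strand minus: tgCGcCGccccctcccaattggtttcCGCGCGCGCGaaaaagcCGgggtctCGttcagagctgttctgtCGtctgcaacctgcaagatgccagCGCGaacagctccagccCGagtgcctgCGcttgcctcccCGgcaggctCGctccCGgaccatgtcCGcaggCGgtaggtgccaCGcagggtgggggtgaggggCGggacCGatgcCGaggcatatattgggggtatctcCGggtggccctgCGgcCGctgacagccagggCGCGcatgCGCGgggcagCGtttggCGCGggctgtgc
Dnmt3b, chr2:153649199-153649498, strand plus: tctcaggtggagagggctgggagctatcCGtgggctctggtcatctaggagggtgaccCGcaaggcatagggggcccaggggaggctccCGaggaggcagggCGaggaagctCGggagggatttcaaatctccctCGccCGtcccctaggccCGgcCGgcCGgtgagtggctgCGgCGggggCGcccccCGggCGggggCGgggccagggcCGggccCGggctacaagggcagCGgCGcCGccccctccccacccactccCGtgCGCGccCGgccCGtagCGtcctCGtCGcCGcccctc
Eed, chr7:89980927-89981226, strand minus: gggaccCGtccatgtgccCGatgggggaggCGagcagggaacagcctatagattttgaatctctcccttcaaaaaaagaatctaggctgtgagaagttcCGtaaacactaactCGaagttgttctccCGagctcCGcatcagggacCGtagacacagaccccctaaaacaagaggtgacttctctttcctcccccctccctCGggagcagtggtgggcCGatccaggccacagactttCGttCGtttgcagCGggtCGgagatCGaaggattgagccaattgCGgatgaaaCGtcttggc

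The Dnmt1 window held 33 CpG, that of Dnmt3b 30 and that of Eed 17, against a median of 7 over all 32851 windows. That of Dnmt1 was chosen for its CpG, and the other Dnmt1 windows held 12 and 2. Motifs of 4 kinds were searched on both strands in all 9 genes: the E2F-type letters TTTCCCGC, TTTCGCGC, TTTGCCGC or TTTGGCGC, the NRF1-type letters GCATGCGC, CCAAT, and GGGCGG. The E2F-type letters were present in 2.26% of all windows. Among the members they were in the Dnmt1 window shown, but not in the other Dnmt1 windows, and in those of Ezh2 and Suz12. The NRF1-type letters were present in 2.71% of all windows and among the members in 2 of the 3 Dnmt1 windows. CCAAT (37.4% of all windows) occurred for Dnmt1, Eed, Ezh2 and Suz12, and GGGCGG (35.7%) for Bmi1, Dnmt1, Dnmt3a, Dnmt3b, Rnf2 and Suz12. For these 2 motifs a gene is named if any of its windows held the letters. Genes with several windows thus had more chances than the shares per window allow for. These are matches of letters, and binding was not measured.

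Over the 27 probe sets, 7 were called higher and 5 lower in dnBrg1 (limma, adjusted p under 0.05), which is 44.4% of them, against 40.8% of all probe sets on the array (19.8% higher and 21.0% lower). The groups did not overlap for 13 of the 27, or 48.1%, against 40.1% of all. The share of these probe sets that differed was thus near that of the whole array, which was not matched to them for brightness. Of the 19 at or above the array's median 8 passed, and of the 8 dimmer ones 4. The median log2 difference of the 27 was -0.02, against -0.08 for all probe sets. At least 1 probe set passed for 8 of the 9 genes, the exception being Ezh2, but only for Dnmt1 did all probe sets pass in the same direction. On the brightest probe set of each gene over all samples, Eed and Ezh1 rose, Dnmt1 and Dnmt3b fell, and 5 did not pass. For Ezh1 alone among the 9, the brightest probe set in the wild type samples was another one, which did not pass, so that 1 gene rose, 2 fell and 6 did not pass when the choice was made in wild type.

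**Figure D1:**
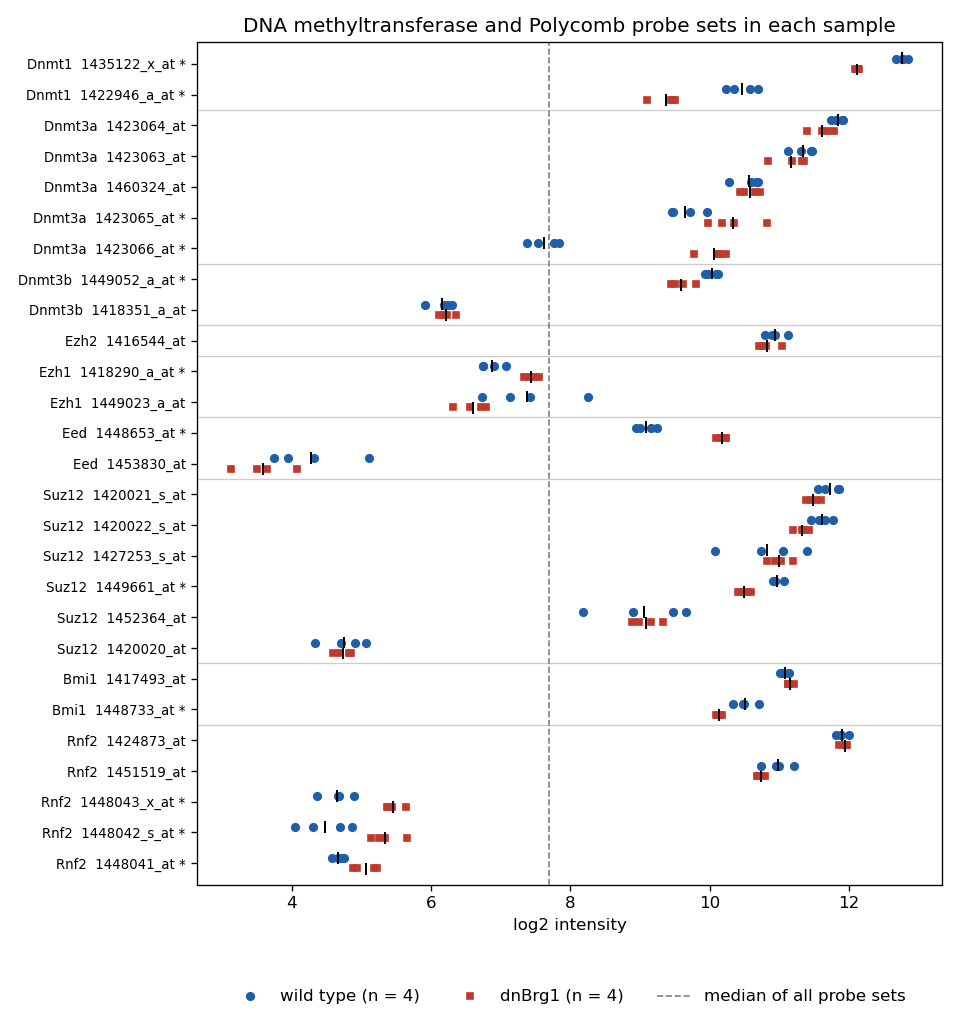
Log2 intensity (horizontal axis) of the 27 probe sets of the 9 genes (vertical axis) in the 4 wild type samples (blue circles) and the 4 dnBrg1 samples (red squares), with black ticks at the group means; an asterisk marks adjusted p under 0.05. Both Dnmt1 probe sets were lower in all dnBrg1 samples, while the probe sets of Dnmt3a, Ezh1, Eed and Rnf2 did not move alike.

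Dnmt1, the maintenance methyltransferase, fell in dnBrg1 on both probe sets. On 1435122_x_at the wild type samples 1 to 4 gave 12.67, 12.85, 12.77 and 12.76, and the dnBrg1 samples 12.15, 12.11, 12.13 and 12.08. The lowest wild type sample lay above the highest dnBrg1 sample, and the spread within each group was small (SD 0.07 and 0.03). The difference was -0.64 ± 0.09 (adjusted p = 0.00044), a 1.56-fold reduction. On 1422946_a_at the values were 10.35, 10.69, 10.23 and 10.58 in wild type and 9.50, 9.44, 9.48 and 9.10 in dnBrg1. The groups again did not overlap, and the fall was -1.08 ± 0.14 (adjusted p = 0.00031), or 2.12-fold. The sizes differed: the first probe set minus the second was 2.30 ± 0.17 (SD, n = 4) in wild type and 2.74 ± 0.16 in dnBrg1, a change of 0.44 (exact permutation test, two-sided, p = 0.029, adjusted p = 0.047 over 18 pairs). With the control 3' minus 5' difference as a covariate both differences became -0.52 and did not pass (adjusted p = 0.14 and 0.28).

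Dnmt3a, a de novo methyltransferase, gave different answers on its 5 probe sets. Probe set 1423066_at read 7.37, 7.53, 7.84 and 7.76 in wild type and 10.13, 10.12, 9.77 and 10.23 in dnBrg1. All dnBrg1 samples were far above all wild type samples, with a rise of 2.44 ± 0.14 (adjusted p = 1e-05), or 5.42-fold. It was 1 of the 2 probe sets of the 9 genes that still passed with the control difference as a covariate, at 2.23 ± 0.34 (adjusted p = 0.017). Probe set 1423065_at read 9.96, 9.47, 9.72 and 9.46 in wild type and 9.98, 10.17, 10.35 and 10.82 in dnBrg1. Here the groups only just separated, wild type sample 1 lying next to dnBrg1 sample 1, and the rise was 0.67 ± 0.19 (adjusted p = 0.02). The value was 0.61 when wild type replicate 4 was left out, which did not pass (adjusted p = 0.054), and 0.23 ± 0.46 with the covariate.

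The 3 brighter Dnmt3a probe sets did not pass. The brightest, 1423064_at, read 11.74, 11.90, 11.82 and 11.91 in wild type and 11.40, 11.62, 11.69 and 11.78 in dnBrg1, a difference of -0.22 with a 95% interval from -0.47 to 0.03. The intervals of 1423063_at (-0.49 to 0.15) and 1460324_at (-0.27 to 0.29) also contained 0, so a rise on the scale of 1423066_at lies outside all 3. The brightest minus 1423066_at was 4.22 ± 0.19 (SD, n = 4) in wild type and 1.56 ± 0.27 in dnBrg1, a change of -2.66 (exact permutation p = 0.029, adjusted p = 0.047). The mean over all 5 Dnmt3a probe sets rose by 0.55 (adjusted p = 0.0031), a value that averages probe sets which differ among themselves. Which stretch of the transcript each probe set reads was not analysed here. The study lists 1423066_at for Dnmt3a and reports higher Dnmt3a by qRT-PCR in dnBrg1, using other pools of lens RNA.

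**Figure D2:**
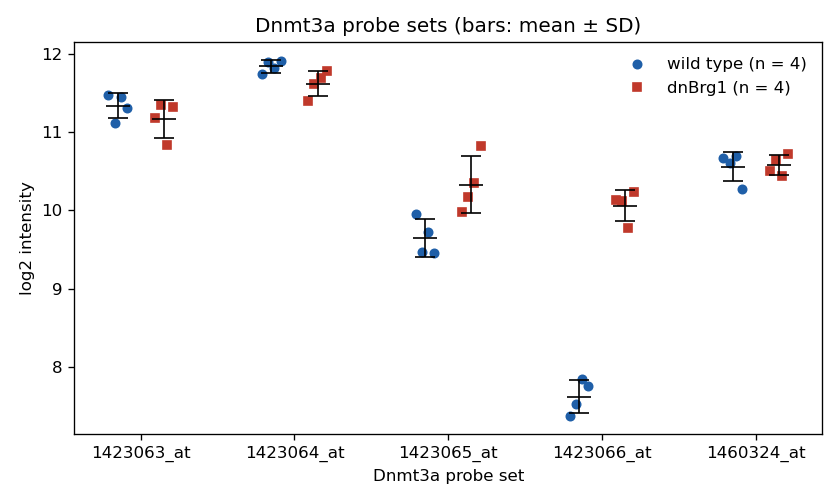
Log2 intensity (vertical axis) of the 5 Dnmt3a probe sets (horizontal axis) in each wild type (blue circles) and dnBrg1 (red squares) sample, with bars for the mean ± SD (n = 4). Probe set 1423066_at lay between 7.37 and 7.84 in wild type and between 9.77 and 10.23 in dnBrg1, while 1423063_at, 1423064_at and 1460324_at overlapped between groups.

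Dnmt3b, the other de novo methyltransferase, fell on its brighter probe set. Values of 1449052_a_at were 9.93, 9.97, 10.12 and 10.09 in wild type and 9.62, 9.50, 9.80 and 9.45 in dnBrg1. Every dnBrg1 sample was below every wild type sample, and the difference was -0.43 ± 0.11 (adjusted p = 0.011). The dimmer 1418351_a_at differed by 0.06 (95% interval -0.20 to 0.33). The change in the difference between these probe sets was -0.50 (exact permutation p = 0.029, adjusted p = 0.047). With the covariate the brighter one gave -0.55 ± 0.25 (adjusted p = 0.23).

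Ezh2 and Ezh1 are the alternative catalytic subunits of PRC2, Ezh2 being the one known from dividing cells and Ezh1 from resting ones. The single Ezh2 probe set, 1416544_at, read 10.94, 11.13, 10.79 and 10.90 in wild type and 10.71, 10.81, 11.04 and 10.77 in dnBrg1. The groups overlapped, and the difference of -0.11 had a 95% interval from -0.37 to 0.15. Ezh1 rose on 1418290_a_at, from 6.91, 6.74, 6.74 and 7.08 in wild type to 7.40, 7.49, 7.34 and 7.55 in dnBrg1, by 0.58 ± 0.11 (adjusted p = 0.0028; 0.61 ± 0.26 and adjusted p = 0.20 with the covariate). Its other probe set, 1449023_a_at, read 7.42, 8.26, 6.73 and 7.13 in wild type and 6.56, 6.32, 6.72 and 6.79 in dnBrg1. This was the opposite direction (-0.79 ± 0.28, adjusted p = 0.052) and wild type samples 1, 2 and 4 lay above all dnBrg1 samples. Without wild type replicate 2, which had the largest control 3' minus 5' difference, it was -0.50 (adjusted p = 0.063), and without wild type replicate 3 it passed in the same direction (adjusted p = 0.012). With that difference as a covariate the value was 0.76 ± 0.44. Both Ezh1 probe sets were dimmer than the median of the array. The mean of both gave -0.10 (adjusted p = 0.61), so these data set no direction for Ezh1 as a gene.

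Eed, the PRC2 subunit that reads methylated histone H3 and stimulates the enzyme, rose on its bright probe set 1448653_at. It read 9.0, 9.16, 9.25 and 8.94 in wild type and 10.16, 10.23, 10.24 and 10.09 in dnBrg1. The groups were apart by far more than the spread within either, and the rise was 1.09 ± 0.10 (adjusted p = 6.2e-05), or 2.13-fold. It passed in all 21 alternative analyses, among them the covariate fit (0.98 ± 0.24, adjusted p = 0.049). The second Eed probe set, 1453830_at, was dim, at 3.74 to 5.11 in wild type and 3.13 to 4.07 in dnBrg1. For scale, 14 genes of distant organs had a median of 4.28, and the bacterial control probe sets averaged 2.41 to 3.23. Its difference of -0.69 ± 0.30 did not pass (adjusted p = 0.093).

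Suz12, the PRC2 scaffold, had 6 probe sets, of which 1 passed. Probe set 1449661_at fell from 10.91, 10.92, 10.94 and 11.07 in wild type to 10.59, 10.55, 10.44 and 10.41 in dnBrg1, by 0.46 on the log2 scale (SE 0.09, adjusted p = 0.0037). The brightest, 1420021_s_at, differed by -0.23 (95% interval -0.48 to 0.01), and 1420022_s_at by -0.29 (adjusted p = 0.053). The dim 1420020_at averaged 4.75 in wild type and 4.74 in dnBrg1. With the covariate 1449661_at gave -0.43 ± 0.21 (adjusted p = 0.25).

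The remaining 2 Suz12 probe sets varied most among the wild type samples. Probe set 1427253_s_at read 10.74, 10.08, 11.40 and 11.05 in wild type and 10.94, 11.02, 10.82 and 11.20 in dnBrg1, and 1452364_at read 8.90, 8.18, 9.66 and 9.48 against 8.99, 9.16, 8.89 and 9.33. Both were lowest in wild type sample 2, where the control 3' minus 5' difference was highest (2.66), and highest in wild type sample 3, where it was lowest in that group (1.43). Genotype alone gave differences of 0.18 ± 0.25 and 0.04 ± 0.29, and with the control difference as a covariate they were -1.17 ± 0.37 and -1.41 ± 0.51 (adjusted p = 0.10 and 0.14). No call was made in either analysis.

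**Figure D3:**
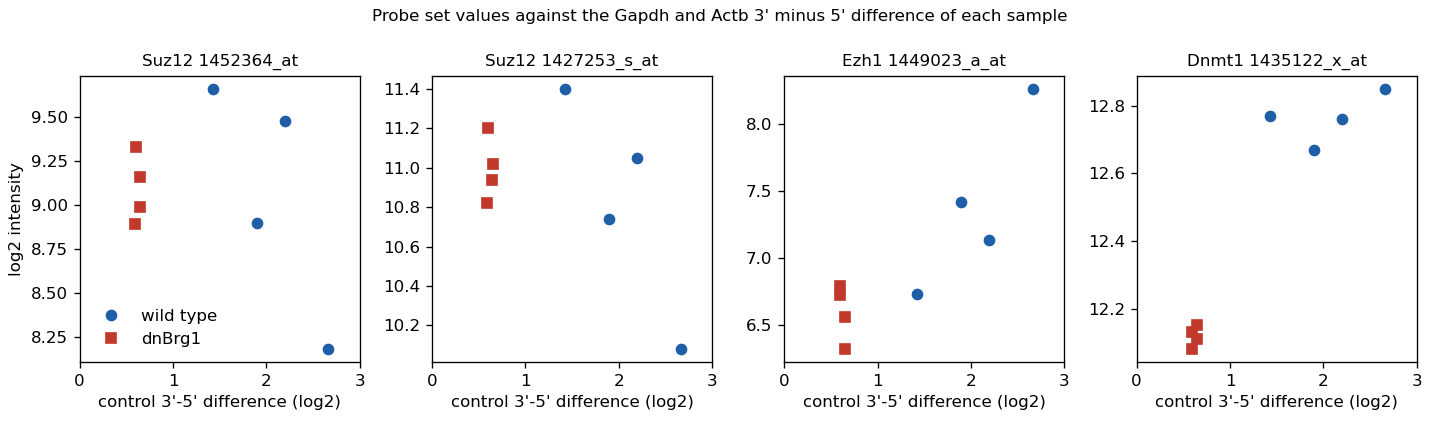
Log2 intensity (vertical axes, each with its own range) of the 3 probe sets whose difference moved most with the covariate (2 of Suz12 and 1 of Ezh1) and of the brightest Dnmt1 probe set against the control 3' minus 5' difference, averaged over both control genes (horizontal axes, log2) in each wild type (blue circles) and dnBrg1 (red squares) sample. The dnBrg1 samples lay at 0.592 to 0.649 on the horizontal axis and the wild type samples at 1.43 to 2.66, and the wild type sample at 2.66 had the lowest value of both Suz12 probe sets and the highest of both others.

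Bmi1, a PRC1 subunit known for repressing the Cdkn2a locus, was nearly constant on its brightest probe set. Values of 1417493_at lay between 11.01 and 11.14 in wild type and between 11.13 and 11.21 in dnBrg1, and the 95% interval of the difference was -0.13 to 0.27. The second probe set, 1448733_at, fell from 10.50, 10.71, 10.48 and 10.33 to 10.09, 10.18, 10.12 and 10.15, a difference of -0.37 ± 0.10 (adjusted p = 0.019). Without dnBrg1 replicate 1 it was -0.35 and did not pass (adjusted p = 0.054), nor did it with the covariate (-0.17 ± 0.23). The first minus the second was 0.57 ± 0.16 (SD, n = 4) in wild type and 1.01 ± 0.06 in dnBrg1, a change of 0.44 (exact permutation p = 0.029, adjusted p = 0.047).

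Rnf2, the ubiquitin ligase of PRC1, did not differ on its brightest probe set and rose on 3 dim ones. Probe set 1424873_at lay between 11.81 and 12.00 in wild type and between 11.85 and 11.97 in dnBrg1 (difference 0.04, 95% interval -0.17 to 0.24), and 1451519_at differed by -0.25 (adjusted p = 0.11). The dim 1448043_x_at read 4.68, 4.36, 4.90 and 4.66 in wild type and 5.44, 5.40, 5.37 and 5.64 in dnBrg1, a rise of 0.81 ± 0.13 (adjusted p = 0.001). The groups did not overlap, but all 8 values were more than 2 log2 units below the median of all probe sets (7.69), close to the level of the distant organ genes. The other dim probe sets, 1448042_s_at and 1448041_at, rose by 0.87 ± 0.19 and 0.38 ± 0.11 (adjusted p = 0.0053 and 0.022), and the latter did not pass without dnBrg1 replicate 1 (0.34, adjusted p = 0.068) or without dnBrg1 replicate 2 (0.32, adjusted p = 0.064). With the covariate the 3 values were 0.21, -0.11 and 0.34, and none passed. The brightest probe set minus 1451519_at changed by 0.29 (exact permutation p = 0.029, adjusted p = 0.047). The same p was found against each of the 3 dim probe sets, but these lie near the level of genes of distant organs, so those differences do not show that stretches of the Rnf2 transcript changed apart.

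Across genes, the fit with the control difference kept the call of 2 of the 12 probe sets, Dnmt3a 1423066_at and Eed 1448653_at, and 1 of the 12 changed sign. The median SE over the 27 probe sets was 0.26 in that fit against 0.12 without it, and it called 6.37% of all probe sets. The groups do not overlap in the control difference, and the dnBrg1 samples hardly vary in it. Its part and that of genotype therefore cannot be told apart for any of the 12 calls, also not for the 2 that were kept.

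**Figure D4:**
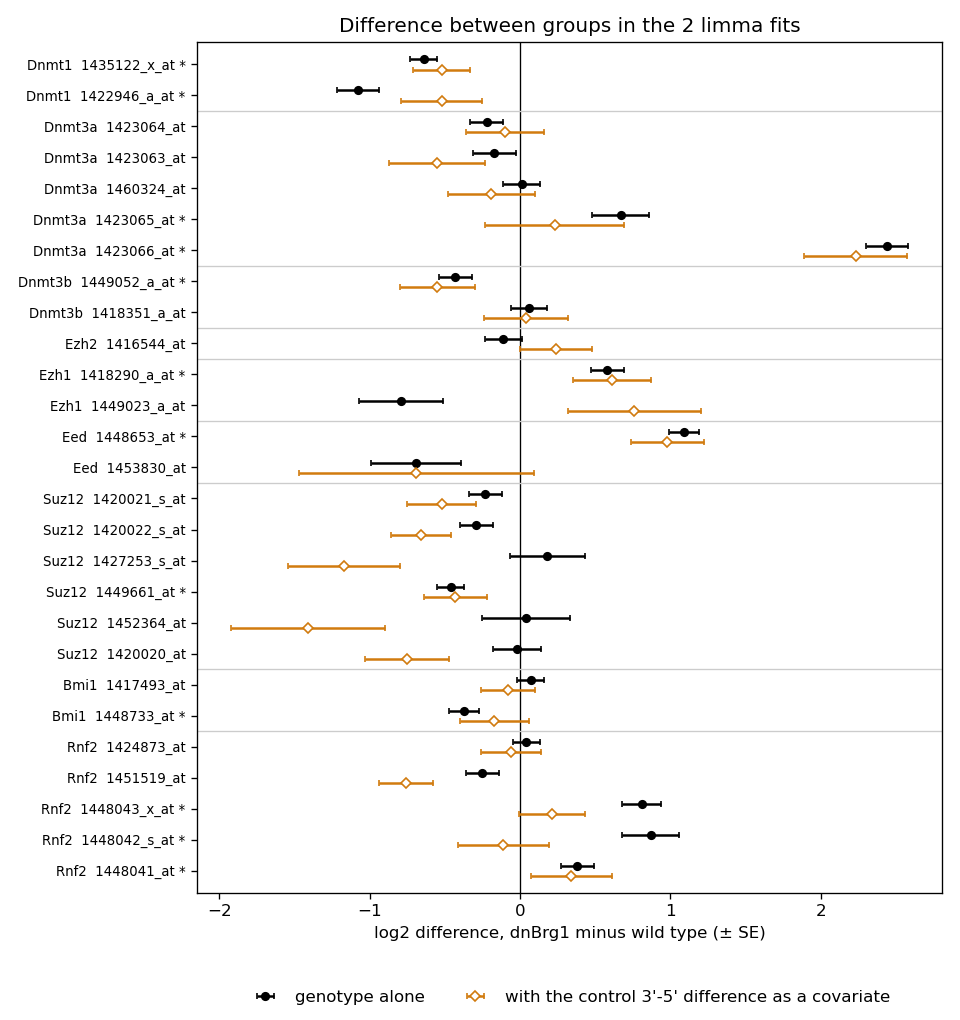
Log2 difference, dnBrg1 minus wild type, with its SE (horizontal axis) for each of the 27 probe sets (vertical axis), fitted with genotype alone (black circles) and with the control 3' minus 5' difference as a covariate (open orange diamonds); an asterisk marks adjusted p under 0.05 with genotype alone. Dnmt3a 1423066_at (2.44 and 2.23) and Eed 1448653_at (1.09 and 0.98) were alike in both, while Ezh1 1449023_a_at went from -0.79 to 0.76.

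Members that work together or in place of each other were compared within each sample on their brightest probe sets, which gives the change of one relative to the other. Of 6 such pairs 4 passed (exact permutation p = 0.029 each, adjusted p = 0.043). Eed minus Suz12 went from -2.64 ± 0.20 (SD, n = 4) in wild type to -1.31 ± 0.13 in dnBrg1. Ezh2 minus Eed went from 1.85 ± 0.21 to 0.65 ± 0.11. On these probe sets Eed moved apart from both Ezh2 and Suz12, the other core subunits of PRC2. Dnmt3a minus Dnmt1 changed by 0.42. Ezh2 minus Ezh1 changed by -0.69 on the Ezh1 probe set 1418290_a_at but by 0.68 on 1449023_a_at, the brighter one in wild type (exact permutation p = 0.057), so no direction was set for this pair. With that probe set in its place the adjusted p of the other 3 pairs was 0.057, and none of the 6 passed. Dnmt3a minus Dnmt3b (change 0.21, p = 0.20) and Bmi1 minus Rnf2 (0.03, p = 0.46) did not pass the exact permutation test. The smallest p that 4 against 4 samples allow is 0.029.

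For each member, the 2 genes whose brightest probe set followed it most closely over the 8 samples were found among 6990 genes at or above the median level, by the root mean square difference after each gene's own mean was removed. Dnmt1 was followed by Rabl3 and Fam20b (0.049 and 0.051 log2 units) and Dnmt3b by Wee1, a cell cycle kinase, and Bcat1 (0.066 and 0.072). Ezh2 was followed by Orc2, a replication origin protein, and Nipsnap1 (0.065 and 0.067), and Ezh1 by Fgfr1, a fibroblast growth factor receptor, and Rbm28 (0.086 and 0.087). For Eed they were Cdk5rap3 and Nufip1 (0.070 and 0.073), and for Suz12 Dnajb9 and Osbpl9 (0.037 and 0.064). For Dnmt3a, Bmi1 and Rnf2, whose brightest probe sets did not pass, they were Tmed4 and Nol6, Rpl35 and Trappc6a, and Cryzl1 and Oga. Any gene has 2 nearest genes, and no reference distance was set. The measure includes the difference between groups, which was -0.67 for Rabl3 and -0.65 for Fam20b. Shared regulation was not tested.

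The genes that act with or against the 9 members were read on the brightest probe set of each. Of 52 measured genes in 7 lists, 9 rose and 11 fell, which is 38.5%, against 40.7% of all genes read in this way (17.5% higher and 23.3% lower). Their share was thus near that of the array, as for the members, again without matching for brightness. Where none of a list is said below to have risen or fallen, limma at an unadjusted p under 0.05 and the methods' test after adjustment also gave 0 in that direction, unless stated. With the covariate 3 of these 20 passed, Pcgf1, Men1 and Kmt2c.

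Of 8 further PRC2 subunits none rose and 2 fell, or 25% against 40.7% of all genes. Their median difference was -0.16, against -0.11 for all genes. Phf1 fell by 0.56 on the log2 scale (SE 0.16, adjusted p = 0.018) and Mtf2, which helps PRC2 find CpG islands, by 0.44 (SE 0.14, adjusted p = 0.036). The Phf1 probe set was dimmer than the array's median. Other Mtf2 probe sets went the other way, at 0.89 and 1.29, and both passed. The fall of Mtf2 did not pass without wild type replicate 3 or 4 or dnBrg1 replicate 1, 3 or 4 (-0.43 to -0.33, adjusted p = 0.07 to 0.092). The histone-binding subunits Rbbp4 and Rbbp7 differed by -0.06 and -0.14 (adjusted p = 0.66 and 0.29; Rbbp7 0.11 with the covariate). With the covariate Phf1 was -0.22.

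Of 14 further PRC1 subunits 1 rose and 4 fell, or 35.7% against 40.7% of all genes, with a median of 0.02. Pcgf1, a Bmi1 paralogue of variant PRC1, went from 6.09 ± 0.22 (SD, n = 4) in wild type to 8.57 ± 0.13 in dnBrg1, a rise of 2.48 ± 0.13 (adjusted p = 1e-05), and passed with the covariate (1.94, adjusted p = 0.013). Its only probe set was, averaged over all samples, dimmer than the array's median. Scmh1 fell by 0.88 on the log2 scale (adjusted p = 0.0022) and Cbx2, a subunit that binds methylated histone H3, by 0.74 (adjusted p = 0.0075); with the covariate both stood at -0.11. Ring1, the paralogue of Rnf2, and Phc1 also fell, by 0.63 and 0.48 (adjusted p = 0.0015 and 0.034); these 2 are named after their values were seen. With the covariate Ring1 stood at -0.51 and Phc1 at 0.05, its sign turned. Phc1 did not pass without wild type replicate 2 or 4 or dnBrg1 replicate 1, 3 or 4 (adjusted p = 0.06 to 0.091).

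On their brightest probe sets, none of 4 genes that erase Polycomb marks passed with limma. Their differences there lay between -0.58 for Bap1 (adjusted p = 0.061) and -0.15 for Usp16 (both 0.66 with the covariate, not called). At an unadjusted p under 0.05 limma gave 1 of them, and the methods' test after adjustment 0. Dimmer probe sets of these genes did pass: that of Asxl1 stood at -2.17, and that of Bap1 at 0.62, opposite in sign to its brightest. The dimmer Kdm6a probe set stood at -0.07 and did not pass. Of 9 DNA methylation cofactors and readers 2 rose and 1 fell, or 33.3% against 40.7% of all genes. Uhrf1, which brings Dnmt1 to hemimethylated DNA, differed by 0.07 (adjusted p = 0.62; -0.27 with the covariate). The histone chaperone subunit Daxx and the repair glycosylase Mbd4 each rose by 0.71 (adjusted p = 0.015 and 0.041), Daxx turning to -0.27 with the covariate. Mbd4, whose probe set was dimmer than the array's median, did not pass without dnBrg1 replicate 2, 3 or 4 (0.64 to 0.73, adjusted p = 0.075 to 0.1). Mbd1, named after its value was seen, fell by 0.54 on the log2 scale (adjusted p = 0.031), and did not pass without wild type replicate 2 or 4 or dnBrg1 replicate 1, 3 or 4 (adjusted p = 0.062 to 0.085); with the covariate it stood at 0.02. Of 3 DNA demethylation genes 1 rose and 1 fell, or 66.7%. The stress response genes Gadd45a and Gadd45b went in opposite directions, 0.93 ± 0.23 and -1.36 ± 0.22 (adjusted p = 0.0094 and 0.001). Of the other Gadd45b probe sets one passed at -1.45 and one stood at 0.80 and did not pass, and Gadd45a was -0.36 with the covariate.

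Of 7 genes of the Trithorax group H3K4 methyltransferases, which oppose Polycomb, 3 rose and none fell, with a median of 0.22. This is 42.9%, near the 40.7% of all genes. Men1, a scaffold of these complexes, rose by 1.34 ± 0.19 (adjusted p = 0.00043) and the methyltransferase Kmt2c by 0.74 ± 0.10 (adjusted p = 0.00046). Both passed with the covariate, at 2.25 and 1.12. Ash2l, named after its value was seen, rose by 0.94 (adjusted p = 0.025), and did not pass without wild type replicate 2 or 4 or dnBrg1 replicate 3 or 4 (0.73 to 0.91, adjusted p = 0.055 to 0.068). Its direction is not settled, since the other Ash2l probe set fell (-0.33, adjusted p = 0.047). With the covariate the brightest one stood at -0.82, but that fit cannot tell the covariate's part from that of genotype. Of 7 genes of H3K9 methylation and HP1 proteins 2 rose and 3 fell, or 71.4%. Cbx3 fell by 0.70 on the log2 scale and the corepressor Trim28 by 0.63, and the methyltransferase Ehmt2 rose by 0.53 (adjusted p = 0.011, 0.021 and 0.019). The Cbx3 probe set was dimmer than the array's median. Trim28 was 0.44 with the covariate, and did not pass without wild type replicate 4 or dnBrg1 replicate 2 or 4, nor Ehmt2 without dnBrg1 replicate 1 or 3 (adjusted p = 0.05 to 0.057 over both genes). The other 2 called genes, named after their values were seen, were Suv39h2 (0.50, adjusted p = 0.024), which did not pass without wild type replicate 1 or 4 or dnBrg1 replicate 1 or 3 (adjusted p = 0.058 to 0.068), and Cbx1 (-0.52, adjusted p = 0.0071). The Suv39h2 probe set that is brightest in wild type stood at -0.39 and did not pass, so no direction was set for this gene, and with the covariate Cbx1 was -0.26.

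Genes known to be silenced by these systems were read in the same way. Of 33 Hox and Cdkn2 genes, classical Polycomb targets, none rose and 3 fell (9.09%, against 40.7% of all genes), and their brightest probe sets had a median level of 3.71 and none reached the array's median. The 3 were Hoxb4, Hoxc6 and Hoxb13, at -0.58, -0.50 and -0.44 (adjusted p = 0.027, 0.011 and 0.0092), all near the level of the distant organ genes. Hoxb4 did not pass without wild type replicate 1 or dnBrg1 replicate 1, 2 or 3 (adjusted p = 0.053 to 0.067). Of 14 germline genes known to depend on DNA methylation for silencing none rose and 1 fell (7.14%, against 40.7% of all genes). None reached the array's median, and their median level of 4.08 was near that of the distant organ genes (4.28). The gene that fell was Sycp3, a meiotic chromosome protein, by 0.34 on the log2 scale (adjusted p = 0.02), though not without dnBrg1 replicate 2 or 3 (adjusted p = 0.058 and 0.053). Of 24 imprinted genes 5 rose and 8 fell, or 54.2%, against 40.7% of all genes read on their brightest probe set. Of these 24, 17 lay at or above the array's median, and the 40.7% is not matched for brightness. Their median difference was -0.08, against -0.11 for all genes. Usp29 fell by 1.72 on the log2 scale, Mcts2 rose by 1.19 and Nnat by 1.13 (adjusted p = 3e-05, 3.2e-05 and 0.0006), and the first 2 passed with the covariate. Array values do not tell the parental alleles apart.

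**Figure D5:**
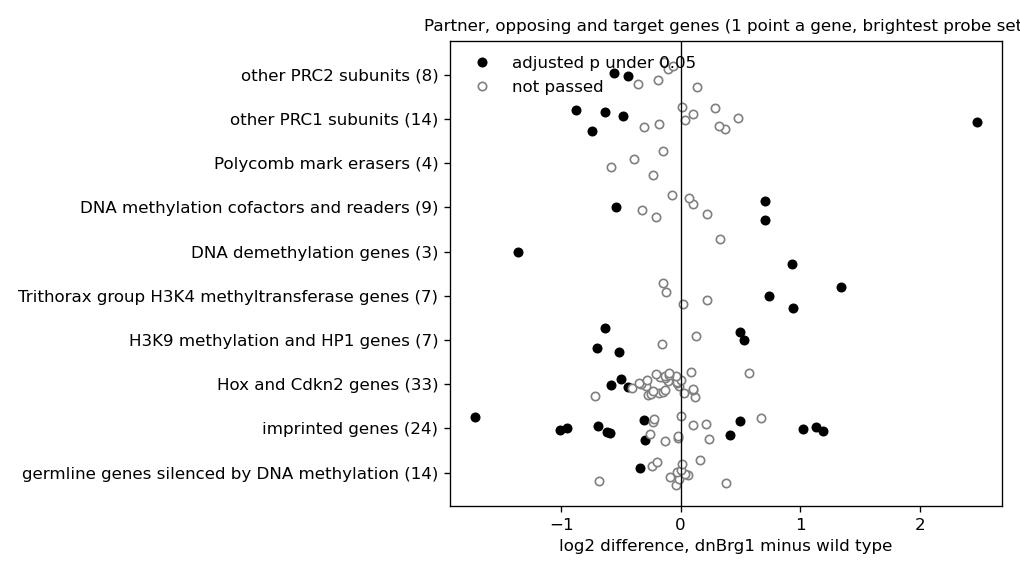
Log2 difference, dnBrg1 minus wild type (horizontal axis), of each measured gene of the partner, opposing and target lists (vertical axis, number of measured genes in parentheses), with filled points for adjusted p under 0.05 and open points for the rest. Pcgf1 stood farthest out at 2.48, and the 33 Hox and Cdkn2 genes held no filled point above 0.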

How the data were processed

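Affymetrix mouse expression arrays were hybridised with cDNA amplified from 50 ng of total RNA. The authors normalised the arrays by robust multichip average (RMA) and deposited linear intensity values, which were taken to log2. Of 22690 probe sets 64 controls were left out, and 20380 of the rest name 1 gene in the platform annotation. Groups were compared with limma 3.58.1 (R 4.3.3; lmFit and eBayes, 4 against 4) over 22626 probe sets with Benjamini-Hochberg adjustment at 0.05. Differences between probe sets and between members were tested by exact permutation of 70 assignments. Tested on simulated data, the fit recovered 20 of 100 changes of 1.5-fold and 68 of 100 of 2-fold. Only these probe sets of 22626 were changed there, whereas 40.8% passed in the measured data. The adjustment was therefore stricter in the simulation, and its rates are not the recovery rates of the measured data. Array number limits precision. The labels do not say whether samples of a group came from separate animals, though the study's methods describe biological replicates; p-values measure the spread between these samples. Same-numbered samples did not deviate together (r from -0.187 to 0.157). The members and lists were chosen with earlier results of these data known. From each partner and target list, up to 3 called genes whose groups did not overlap were named by size of difference. The alternatives were array centring, quantile normalisation, an added constant of 16, bright probe sets alone, other variance models, array weights, a replicate block, Student's test as the methods name it, a 1.5-fold minimum, each description of the dnBrg1 samples, the control covariate and leaving out each sample; the choice of the brightest probe set in wild type alone was added after seeing the data. Significance analysis of microarrays was not used here.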

Additional observations from a re-analysis of the deposited data

Results flagged for a closer look

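Over 122 groups of 4 samples (each named probe set in each genotype), 5 held a sample whose gap to the nearest other sample, as a share of the group's range, exceeded Dixon's 95% critical value for 4 samples; chance alone gives about 1 in 20 groups. Dnmt1 1422946_a_at was low in dnBrg1 sample 4 (9.10, the others 9.44 to 9.50; share 0.837). Bmi1 1417493_at was high in dnBrg1 sample 3 (11.21, the others 11.13 to 11.14; share 0.896). Rnf2 1424873_at was low in dnBrg1 sample 3 (11.85, the others 11.95 to 11.97; share 0.874). Mbd4 1449490_at was low in wild type sample 1 (4.22, the others 5.19 to 5.37; share 0.845). Rbbp7 1456227_x_at was low in dnBrg1 sample 4 (12.12, the others 12.29 to 12.31; share 0.868).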

How the results depend on the processing

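Of the 12 called member probe sets, 9 passed in the same direction whichever sample was left out. Of the 8 bright ones, Dnmt3b 1449052_a_at did not pass with dnBrg1 samples 3 and 4 alone (-0.401), Dnmt3a 1423065_at and Suz12 1449661_at did not with samples 1 and 2 alone (0.418 and -0.393), and Bmi1 1448733_at did not with either pair (-0.367 and -0.371). Member probe sets called higher (7) became 3 with bright probe sets alone and 2 with the control covariate, and those called lower (5) became 8 with quantile normalisation, 8 with the methods' Student test at an unadjusted threshold, 2 with a 1.5-fold minimum, 3 with either pair of dnBrg1 samples and 0 with the covariate (limma). Partner genes called higher (9) became 4 with either pair of dnBrg1 samples and 3 with the covariate, and ranged from 5 (without dnBrg1 replicate 3) to 12 with 1 sample left out. Those called lower (11) became 7 with the adjusted Student test, 6 with the 1.5-fold minimum, 4 and 5 with dnBrg1 samples 1 and 2 or 3 and 4, and 0 with the covariate, and ranged from 7 (without wild type replicate 4 or dnBrg1 replicate 4) to 12 with 1 sample left out. Over all probe sets the covariate took the calls from 4484 higher and 4745 lower to 808 and 634; lower calls were 2996 with the 1.5-fold minimum and 2600 and 2825 with dnBrg1 samples 1 and 2 or 3 and 4.

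The block ended the calls of Dnmt3a 1423065_at, Bmi1 1448733_at and Rnf2 1448041_at among the members. Same-numbered samples were not shown to pair, with only 1 of 4 wild type samples best with its own number. With the replicate block, 5 and 4 member probe sets were called higher and lower, and none of the 18 probe set pairs or 6 member pairs passed (0 of each), since the exact test over 16 sign flips cannot go below p = 0.125. The pair counts (11 and 4) were likewise 0 with either pair of dnBrg1 samples and 0 to 0 with 1 sample left out, where the smallest exact p is too large to pass; the 11 also became 0 with the added constant of 16 and with quantile normalisation, where 10 pairs remained at an unadjusted p under 0.05 and the adjusted p of all 18 then missed the threshold. With the brightest probe set of each gene chosen in wild type, an alternative added after seeing the data, the member pairs that passed (4) became 0, while partner genes called were 8 higher and 11 lower. The control difference, -0.928 for Gapdh and -1.92 for Actb, ranged from -1.126 to -0.672 and from -2.135 to -1.765 with 1 sample left out, where the exact p of 0.057 is the smallest possible.

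Some log2 differences changed sign, and of these Rnf2 1448042_s_at, Daxx, Gadd45a, Trim28, Phc1, Mbd1 and Ash2l had been called; none was called after the change. With array medians centred they were Dnmt3a 1460324_at (-0.023). With quantile normalisation they were Dnmt3a 1460324_at (-0.037), Suz12 1420020_at (0.072) and Rnf2 1424873_at (-0.037). With the control covariate they were Dnmt3a 1460324_at (-0.19), Ezh2 1416544_at (0.24), Ezh1 1449023_a_at (0.76), Suz12 1427253_s_at (-1.17), Suz12 1452364_at (-1.41), Bmi1 1417493_at (-0.075), Rnf2 1424873_at (-0.062), Rnf2 1448042_s_at (-0.11), Daxx 1419026_at (-0.27), Gadd45a 1449519_at (-0.36), Trim28 1415869_a_at (0.44), Phc1 1423212_at (0.05), Mbd1 1417968_a_at (0.016), Ash2l 1420616_at (-0.821), Rbbp7 1456227_x_at (0.106), Uhrf1 1415810_at (-0.266), Bap1 1452039_a_at (0.66) and Usp16 1431951_a_at (0.661). With dnBrg1 samples 3 and 4 alone they were Suz12 1420020_at (0.002). With 1 sample left out, the range crossed 0 for Dnmt3a 1460324_at (-0.080 to 0.059), Dnmt3b 1418351_a_at (-0.020 to 0.11), Suz12 1427253_s_at (-0.068 to 0.37), Suz12 1452364_at (-0.26 to 0.24) and Suz12 1420020_at (-0.16 to 0.089). The cause was not tested.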
